A study of Mus musculus with 14 samples.

Results

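Leukocyte integrins are the adhesion receptors of blood cells, and 8 of their chains were followed here across mouse mammary tumors: the α chains *Itga4*, *Itgal*, *Itgam*, *Itgax* and *Itgae*, and the β chains *Itgb2*, *Itgb7* and *Itgb1*. They were chosen by name, and all 8 were found as a row among the 56414 genes of the deposited table. Bulk RNA-seq had been performed on 14 tumors of C57Bl/6 mice to ask what nicotinamide (NAM), a form of vitamin B3, does to the transcriptome of established tumors. M/D-driven tumors arose in female mice that were given a subcutaneous pellet of medroxyprogesterone acetate at the age of 6 to 9 weeks and then 6 gavages of the carcinogen DMBA. AT3 tumors grew from subcutaneously injected AT3 cells, a mouse mammary carcinoma line, so that all 6 came from 1 line. The groups were 4 untreated M/D tumors, 4 NAM-treated M/D tumors, 3 untreated AT3 tumors and 3 NAM-treated AT3 tumors. NAM was added at 0.5% to the drinking water for 10 days, starting after randomization at a tumor area of 0.25 cm2, and untreated mice received no agent. The labels number the tumors of a group without stating that each came from a separate mouse, so p values measure the spread between these tumors only.

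Integrins are pairs of 1 α and 1 β chain that switch from a bent, inactive shape to an extended shape when the cell is stimulated, through talin and kindlin binding to the β tail. The β2 family, in which *Itgb2* (CD18) pairs with *Itgal* (LFA-1), *Itgam* (Mac-1), *Itgax* (CD11c) or *Itgad*, is restricted to leukocytes and binds ICAMs and complement fragments. *Itga4* pairs with *Itgb1* (VLA-4) to bind VCAM-1 and fibronectin or with *Itgb7* to bind MAdCAM-1, and *Itgae* (CD103) pairs with *Itgb7* to bind E-cadherin on epithelial cells. *Itgb1* is the shared partner of many α chains and is made by nearly all cells, tumor cells and fibroblasts included.

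On the mm10 assembly, *Itgal* (chr7:127296260-127335137), *Itgam* (chr7:128062640-128128162) and *Itgax* (chr7:128129546-128150657) were listed near each other on chromosome 7. *Itga4* was at chr2:79255425-79333114, *Itgae* at chr11:73090574-73147449, *Itgb2* at chr10:77530347-77565708, *Itgb7* at chr15:102215996-102231936 and *Itgb1* at chr8:128685654-128733579. Promoter windows of 300 bases around the annotated start, from RefSeq on GRCm38.p6, were matched for 5 of the 8 genes. Shown are those of *Itgam*, which held the letters marked in capitals most often among the 5, of *Itga4*, which had the largest log2 fold change in both models, and of the β chain *Itgb7*. Capitals mark GAGGAA or its reverse complement TTCCTC, the core letters read by PU.1, a myeloid and B cell factor of the ETS family.
*Itgam* promoter, chr7:128062390-128062689, plus strand: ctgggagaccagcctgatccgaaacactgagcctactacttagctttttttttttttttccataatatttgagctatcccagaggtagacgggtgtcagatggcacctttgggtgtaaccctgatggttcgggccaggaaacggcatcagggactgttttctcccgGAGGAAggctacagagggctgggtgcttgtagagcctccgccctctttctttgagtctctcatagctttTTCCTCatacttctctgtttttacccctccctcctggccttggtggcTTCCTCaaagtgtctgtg
*Itga4* promoter, chr2:79255176-79255475, plus strand: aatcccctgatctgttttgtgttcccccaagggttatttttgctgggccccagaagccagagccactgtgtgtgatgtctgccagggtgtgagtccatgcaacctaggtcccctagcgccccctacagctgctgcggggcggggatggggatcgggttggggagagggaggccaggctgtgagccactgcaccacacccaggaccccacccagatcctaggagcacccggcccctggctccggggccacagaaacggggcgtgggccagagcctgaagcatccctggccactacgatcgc
*Itgb7* promoter, chr15:102231886-102232185, minus strand: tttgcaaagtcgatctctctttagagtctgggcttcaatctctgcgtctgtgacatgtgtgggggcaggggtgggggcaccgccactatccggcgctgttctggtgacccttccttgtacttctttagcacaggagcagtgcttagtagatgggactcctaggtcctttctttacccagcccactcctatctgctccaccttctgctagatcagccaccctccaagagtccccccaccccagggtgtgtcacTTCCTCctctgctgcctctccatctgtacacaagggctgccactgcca
The letters were found 3 times for *Itgam* (1 forward, 2 reverse), 1 time each for *Itgb7* and *Itgb1*, and 0 times for *Itga4* and *Itgax*. They were present on either strand in 28.3% of 32851 promoter windows of the same length. The RUNX core TGTGGT or ACCACA, found in 16.8% of windows, was present 1 time each for *Itga4* and *Itgax*. The Sp1 core GGGCGG or CCGCCC, found in 35.7% of windows, was present 1 time each for *Itga4*, *Itgam* and *Itgb1*. No match overlapped another, and a match describes letters, not binding.

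Values are normalized counts, that is reads on a gene divided by a size factor of the tumor, from 40936868 to 84178009 reads per tumor on all genes. The labels place NAM-treated M/D tumor 1 in experiment 2, the other 7 M/D tumors in experiment 1 and all 6 AT3 tumors in experiment 3. NAM-treated M/D tumor 1 stood apart: it was the lowest of the 8 M/D tumors for 9 of 9 epithelial markers, which summed to 7765 against 258726 to 1008997 in the other 7, although it is labelled a mammary gland tumor. It was the highest for 6 of 6 B cell markers and 6 of 7 precursor B cell markers, the latter summing to 222490 against 1131 to 1625, and 5 leukocyte markers summed to 141618 against 26739 to 50716. As whole tumors were sequenced, fewer cells of a type and less RNA per cell cannot be told apart.

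Per kilobase of the longest transcript, the members kept a wide order of levels. In untreated M/D tumors, *Itgb1* was first at 8941 ± 933 normalized counts per kilobase (SD, n = 4), followed by *Itgb2* at 2505 ± 898, *Itgax* at 1314 ± 46.2, *Itgam* at 997 ± 387, *Itgb7* at 498 ± 230, *Itgal* at 413 ± 139, *Itgae* at 209 ± 106 and *Itga4* at 30.4 ± 10.8. The ranges over tumors overlapped for each pair of neighbours from *Itgax* to *Itgae*, and were separate for *Itgb1* and *Itgb2*, for *Itgb2* and *Itgax*, and for *Itgae* and *Itga4*. In untreated AT3 tumors, the order by mean was the same, from 5047 ± 357 for *Itgb1* (n = 3) and 401 ± 51.4 for *Itgb2* down to 19.6 ± 6.53 for *Itgae* and 1.95 ± 0.16 for *Itga4*, and the *Itgal* range (25.3 ± 11.2) alone overlapped that of its neighbour, *Itgae*. *Itga4* was therefore the scarcest chain in both models, and its untreated AT3 values rest on 14, 17 and 24 reads.

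**Figure D1:**
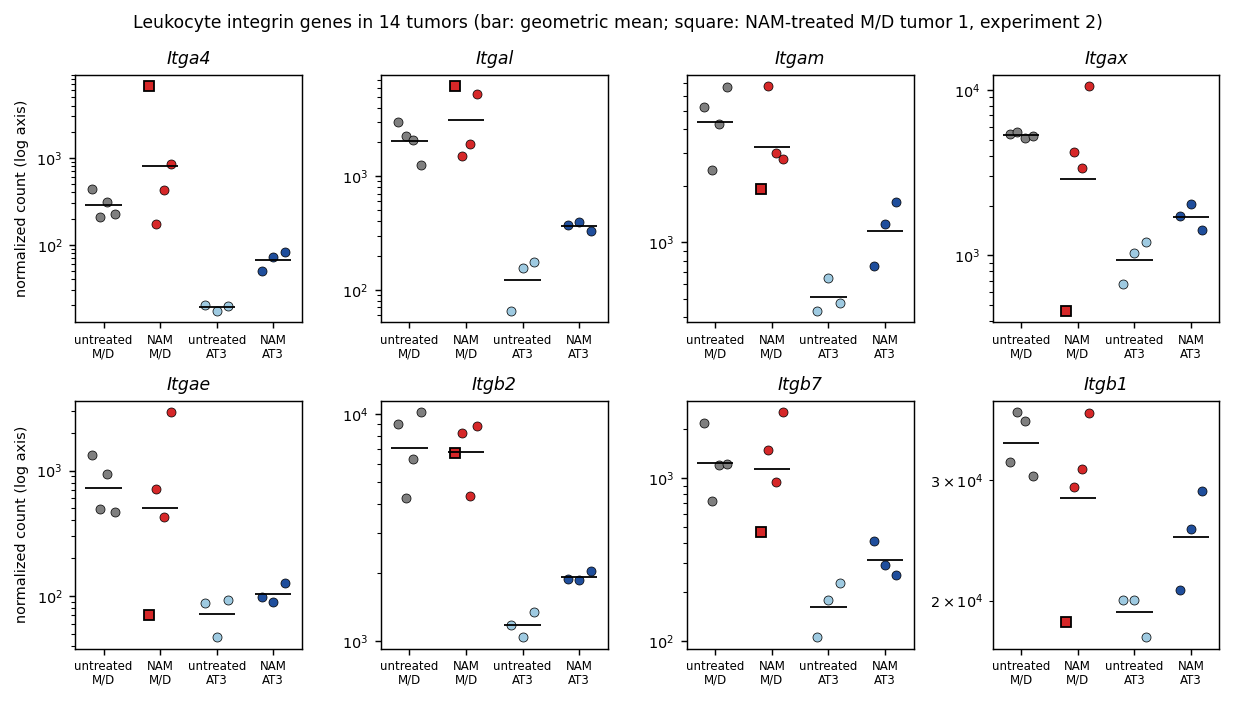
Normalized count (log axis) of each of the 8 genes in untreated and NAM-treated M/D and AT3 tumors, with 1 point per tumor, a bar at the geometric mean of the group and a square for NAM-treated M/D tumor 1. NAM-treated AT3 points lie above all untreated AT3 points for 7 genes (not *Itgae*), while M/D groups overlap for all 8.

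In M/D-driven tumors, no leukocyte integrin passed the thresholds between NAM-treated and untreated tumors, and the 2 groups overlapped for all 8 genes. The NAM-treated tumors spanned a wider range, as highest over lowest, than the untreated ones for 7 of the 8 (all but *Itgb2*), and NAM-treated tumor 1 was the highest or the lowest of all 8 tumors for 7 (again all but *Itgb2*). Genes were called in limma on log2(normalized count + 1) by thresholds of 0.05 on the unadjusted p value and of 1.5 on the fold, on a scale that understates changes of low genes. No member had an unadjusted p under 0.05. These thresholds were met by 6.22% of 21700 genes tested, and groups did not overlap for 4.43%.

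Among the β2 family, *Itgal*, the LFA-1 chain of lymphocytes, was at 3018, 2281, 2079 and 1248 in untreated and 6256, 1516, 1920 and 5348 in NAM-treated M/D tumors. NAM-treated tumors 1 and 4 were thus the highest of all 8, and tumors 2 and 3 lay within the untreated range. *Itgam*, the Mac-1 chain of neutrophils, monocytes and macrophages, was at 5249, 2413, 4275 and 6732 without NAM and at 1918, 6804, 2996 and 2760 with NAM. Both the lowest and the highest tumor had received NAM. *Itgax*, a chain of dendritic cells and tissue macrophages, was nearly constant in untreated tumors, at 5392, 5536, 5107 and 5232, and was at 462, 4188, 3384 and 10579 in NAM-treated ones. No NAM-treated value fell within the narrow untreated range, yet they lay on both sides of it, 22.9-fold apart. *Itgb2*, the common β2 chain, was at 9019, 4254, 6319 and 10166 against 6708, 8249, 4371 and 8861. All 4 NAM-treated tumors were inside the untreated range. The log2 fold changes were 0.61 for *Itgal* (SE 0.51), −0.44 for *Itgam* (SE 0.44), −0.88 for *Itgax* (SE 0.82) and −0.05 for *Itgb2* (SE 0.33), with adjusted p values in limma (Benjamini-Hochberg over all genes tested) of 0.803 to 0.981.

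*Itga4*, which lymphocytes and their precursors use to adhere to VCAM-1, was at 438, 208, 313 and 227 in untreated and at 6758, 175, 425 and 860 in NAM-treated M/D tumors. Tumor 1 of experiment 2 was far above all others, and the lowest tumor had also received NAM. *Itgae*, a marker of epithelium-resident T cells and of a dendritic cell subset, was at 1326, 498, 931 and 465 against 70.5, 706, 423 and 2927. The NAM-treated tumors held both extremes, 41.5-fold apart. *Itgb7* followed with 2192, 720, 1206 and 1225 against 466, 1480, 954 and 2541. *Itgb1* was at 31829, 37701, 36538 and 30370 against 18639, 29287, 31182 and 37627. Tumor 1 was again the lowest for *Itgb7* and *Itgb1*. The log2 fold changes were 1.52 for *Itga4* (SE 0.99, adjusted p = 0.773 in limma), −0.55 for *Itgae* (SE 1.00), −0.12 for *Itgb7* (SE 0.54) and −0.26 for *Itgb1* (SE 0.23).

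The tumor of experiment 2 set much of these values. Without it, the log2 fold change of *Itga4* was 0.50 (SE 0.55), that of *Itgal* 0.28, that of *Itgam* −0.19, that of *Itgb2* −0.04 and that of *Itgb1* −0.06. *Itgae* and *Itgb7* then turned to 0.39 and 0.31, and *Itgax* from −0.88 to 0.00 (SE 0.37). No member passed the thresholds without it. With the edgeR and DESeq2 tests on recovered reads, *Itga4* did pass them with all 8 tumors, at log2 fold changes of 2.75 (adjusted p = 0.587) and 2.77 (adjusted p = 0.166), and likewise in limma without NAM-treated tumor 2 (2.25, adjusted p = 0.357).

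Markers of neutrophils, which carry *Itgam*, varied widely in the same tumors. The 10 markers summed to 80875, 153995, 455408 and 388065 in untreated and 4405, 234635, 6968 and 63973 in NAM-treated M/D tumors, and the NAM-treated tumor with the highest *Itgam* (tumor 2) also had the highest sum of its group, whereas the untreated tumor with the highest sum (tumor 3) lay below 2 other untreated tumors for *Itgam*. These sums are set by their most abundant genes and need not track neutrophil content. *S100a8*, 1 of the 10, was at 4244, 214, 132539 and 71665 in untreated M/D tumors. With NAM it was at 295, 91728, 60.8 and 530. Untreated tumor 2 thus had the lowest untreated *S100a8* but not the lowest sum. Of the 10 markers, 0 were called higher and 1 lower (*Ltf*, −2.30, adjusted p = 0.734 in limma), against 3.03% and 3.19% of all genes. Of 7 NK cell markers, 2 were called higher and 0 lower, and all 7 were above 0. None of 5 leukocyte, 9 T cell, 6 B cell, 8 macrophage or 7 dendritic cell markers was called. The part of neutrophil content in the *Itgam* values was not tested.

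In AT3 tumors, 6 of 8 leukocyte integrins were higher with NAM: *Itga4*, *Itgal*, *Itgam*, *Itgax*, *Itgb2* and *Itgb7*. *Itgae* and *Itgb1* did not pass the thresholds, and no member was called lower. The same thresholds called 12.2% of 19281 genes higher and 10.9% lower, 23.1% in all. Treated and untreated tumors did not overlap for 7 of the 8 members, with NAM higher in each, against 11.7% of all genes with NAM higher and 22.6% in either direction. The median log2 fold change of the 8 was 0.90, and that of all genes tested −0.05.

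*Itgal* was at 65.2, 155 and 175 in untreated and at 371, 400 and 327 in NAM-treated AT3 tumors. Every treated tumor was above every untreated one, and untreated tumor 1 was well below its group. *Itgam* was at 432, 644 and 477 against 746, 1257 and 1638, and *Itgax* at 674, 1031 and 1208 against 1733, 2032 and 1429. The gap between groups was small for both, with the lowest treated tumor just above the highest untreated one. *Itgb2* varied least of the β2 family within each group, at 1185, 1043 and 1348 without NAM and 1877, 1860 and 2028 with it. The log2 fold changes were 1.58 for *Itgal* (SE 0.39), 1.18 for *Itgam* (SE 0.32), 0.86 for *Itgax* (SE 0.27) and 0.70 for *Itgb2* (SE 0.20), each with an adjusted p of 0.166 in limma (Benjamini-Hochberg).

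*Itga4* had the largest change, from 20.3, 17.3 and 19.5 to 49.8, 72.4 and 83.4, a log2 fold change of 1.77 (SE 0.41, adjusted p = 0.166 in limma). All 3 treated tumors were over every untreated one, at low counts. *Itgb7* went from 106, 180 and 227 to 411, 292 and 256, a log2 fold change of 0.94 (SE 0.35, adjusted p = 0.174 in limma). *Itgae*, its αE partner, was at 87.0, 46.7 and 92.8 against 98.4, 89.4 and 126, and 1 treated value lay within the untreated range. *Itgb1* was at 20016, 20061 and 17681 against 20757, 25441 and 28914, separate but by less than 1.5-fold (log2 fold change 0.37, SE 0.21, adjusted p = 0.30 in limma). The exact two-sided permutation test gave p = 0.1 for the 7 separate members, the smallest p that 3 tumors against 3 allow, and p = 0.2 for *Itgae*. After adjustment, the result depended on the tool: edgeR on recovered reads gave adjusted p values of 0.142 to 0.166 for the 6 called members, whereas DESeq2 gave 0.00626 for *Itga4*, 0.00857 for *Itgal*, 0.0121 for *Itgam*, 0.0146 for *Itgb2*, 0.0434 for *Itgax* and 0.083 for *Itgb7*. At an adjusted p of 0.05, DESeq2 passed 2047 of all genes, limma 1 and edgeR 0.

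**Figure D2:**
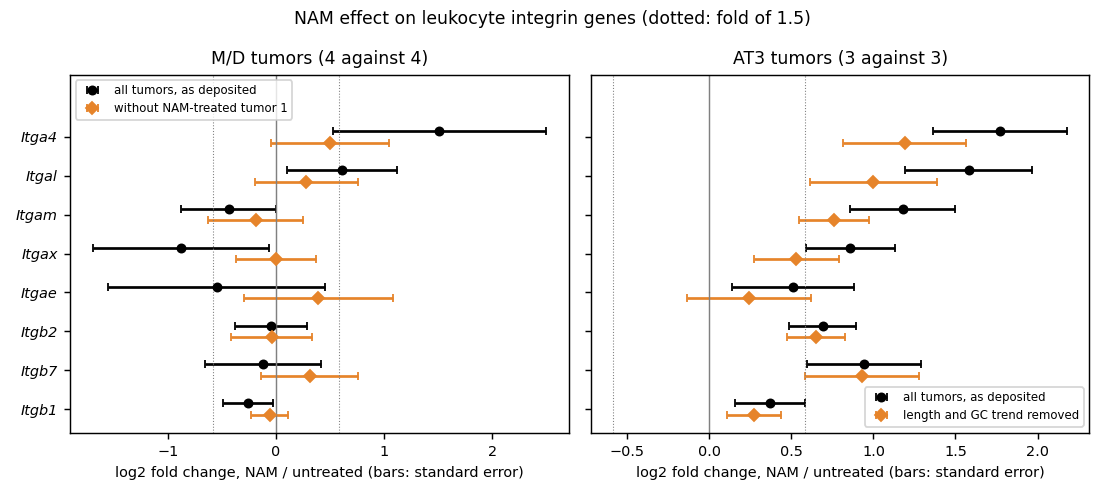
Log2 fold change between NAM-treated and untreated tumors (x axis, bars are standard errors) for the 8 genes in M/D tumors (left; orange diamonds without NAM-treated tumor 1) and AT3 tumors (right; orange diamonds with the trend on transcript length and GC content removed). Dotted lines mark a fold of 1.5. With all tumors as deposited, 6 genes lie beyond them in AT3 tumors and were called. In M/D tumors, *Itga4*, *Itgal* and *Itgax* lie beyond them, but no gene met the p threshold as well.

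Length of the transcript moved with the NAM effect in AT3 tumors. Over 16429 genes with a length, the log2 fold change correlated with transcript length at a Spearman rho of 0.59 (genes are not independent replicates), against −0.04 in M/D tumors. The members' longest transcripts ran from 2683 bases (*Itgb7*) to 9767 bases (*Itga4*). With each tumor's trend on length and GC content removed, 5 of 8 members were still called higher in AT3 tumors: *Itga4* (1.19), *Itgal* (1.00), *Itgam* (0.76), *Itgb2* (0.65) and *Itgb7* (0.93). On this scale, 8.77% of 16429 genes were called higher and 7.3% lower. *Itgax* then missed the thresholds (0.53, SE 0.26, adjusted p = 0.257 in limma), as it did without untreated tumor 1 (0.62) or NAM-treated tumor 2 (0.74), and *Itgb7* did without untreated tumor 1 (0.63) or NAM-treated tumor 1 (0.74). Scaling by the upper quartile, which moved the median of all genes to −0.26, left 4 members called, since *Itgb2* (0.49) and *Itgb7* (0.73) no longer passed. That scaling called 1459 genes higher and 3492 lower, whereas 2358 and 2100 were called higher and lower as deposited.

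Markers of leukocytes as a whole moved in part with the integrins in AT3 tumors. *Ptprc* (CD45), carried by all leukocytes, was at 697, 859 and 1186 in untreated and 1476, 1525 and 1385 in NAM-treated tumors, and was called higher (log2 fold change 0.71, SE 0.24, adjusted p = 0.169 in limma). Of 5 leukocyte markers, 2 were called higher (*Ptprc* and *Laptm5*, 1.02) and 0 lower, and *Coro1a* (0.12), *Cd53* (0.05) and *Cd52* (−0.49) were not called. Of 8 macrophage markers, 4 were called higher (*Adgre1*, *Csf1r*, *Mrc1* and *Mertk*, 0.81 to 1.05), while *Cd68*, *C1qa*, *C1qb* and *C1qc* were at −0.27 to −0.09. None of 9 T cell markers, 7 NK cell markers or 7 neutrophil markers tested was called in either direction in AT3 tumors by limma at these thresholds. Of 5 B cell markers tested, 0 were called higher and 2 lower. Markers of other cell types moved as well. Of 5 endothelial markers, 4 were called higher (*Pecam1*, *Cdh5*, *Kdr* and *Tie1*, 0.71 to 1.54) and *Emcn* (−0.32) was not called, with summed levels of 4439 to 5641 in untreated and 6132 to 8883 in NAM-treated AT3 tumors. Of 6 fibroblast markers, 2 were called higher (*Pdgfra*, 1.14, and *Pdgfrb*, 1.44), with sums of 49177 to 173914 against 79987 to 229199. Of 9 epithelial markers, 2 were called lower (*Krt19*, −1.24, and *Krt14*, −0.79), with sums of 75245 to 94209 against 57294 to 68258. These counts stand beside 12.2% of all genes called higher and 10.9% lower. With the trend on length and GC content removed, 1 of 8 macrophage markers was called higher, and all 8 were above 0. So were 5 of 5 leukocyte, 9 of 9 T cell, 7 of 7 neutrophil and 4 of 4 mast cell markers. Among NK cell and dendritic cell markers 4 of 7 each were above 0, and 1 of 5 B cell and 2 of 5 precursor B cell markers. Called higher were also 2 of 5 leukocyte, 2 of 5 endothelial and 2 of 6 fibroblast markers, and 0 of 9 epithelial markers were called lower. On that scale, 8.77% of all genes were called higher and 7.3% lower. The part of cell content in the integrin values was not tested.

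Relative to *Ptprc* of the same tumor, *Itgal* was the 1 member called higher with NAM in AT3 tumors (log2 difference 0.87, SE 0.44, adjusted p = 0.127 in limma), against 1.4% of all genes called higher, 37.9% called lower and 39.3% in all on this scale. *Itga4* was at 1.06 (SE 0.61), *Itgam* at 0.47, *Itgb7* at 0.23, *Itgax* at 0.15, *Itgb2* at −0.02, *Itgae* at −0.20 and *Itgb1* at −0.34. The *Itgal* call was lost without any 1 of the 3 NAM-treated AT3 tumors (0.83 to 0.91), without untreated AT3 tumor 1 (0.61, where *Itga4* was called instead) and with the trend on length and GC content removed (0.59). With the mean of 5 leukocyte genes as the reference, 2 members were called, and *Itgae* (0.23), *Itgb2* (0.41) and *Itgb1* (0.09) changed sign. In M/D tumors, no member was called relative to *Ptprc* (range −1.38 for *Itgax* to 1.02 for *Itga4*), against 6.29% of all genes.

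In the test of the difference between models, 1 of 8 members was called, *Itgam*, a share near that of all genes. Its NAM effect was 1.61 higher on the log2 scale in AT3 than in M/D tumors (SE 0.61, adjusted p = 0.266 in limma, interaction term over 14 tumors), with −0.44 in M/D and 1.18 in AT3 tumors. The thresholds were met by 14.9% of 22710 genes, and by 7.9% with the AT3 effect higher. For the other 7 members the differences ran from 0.25 (*Itga4*, SE 1.23) to 1.74 (*Itgax*, SE 1.01) and were not called. Without the M/D tumor of experiment 2, the *Itgam* difference was 1.37 (adjusted p = 0.264 in limma) and still met the thresholds. It missed them with the trend on length and GC content removed (1.20, adjusted p = 0.495 in limma) and without NAM-treated AT3 tumor 3 (1.36, adjusted p = 0.62 in limma).

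The α chains that share *Itgb2* were present in different proportions. In untreated M/D tumors, *Itgal* made up 18.0% ± 5.99 of the summed counts of *Itgal*, *Itgam*, *Itgax* and *Itgad* (SD, n = 4), *Itgam* 37.5% ± 11.2 and *Itgax* 44.4% ± 6.84. NAM-treated M/D tumor 1 had the highest *Itgal* share (71.4%) and the lowest *Itgax* share (5.27%) of all tumors. Its *Itgam* share of 21.9% lay within the range of the other M/D tumors (14.7 to 54.3%). In AT3 tumors, *Itgax* had the largest mean share, at 59.5% ± 4.67 (n = 3) without and 52.6% ± 9.60 with NAM, although *Itgam* (48.2%) exceeded *Itgax* (42.0%) in NAM-treated AT3 tumor 3. The *Itgal* share was 5.57, 8.45 and 9.38% in untreated and 13.0, 10.8 and 9.62% in NAM-treated AT3 tumors, so that the groups were separate by a narrow margin. *Itgad* stayed at or below 0.442% in 13 tumors and was at 1.47% in NAM-treated M/D tumor 1. How the authors' counting treated reads shared by these related genes is not given in the sources used here, and depth in counts sets the precision of each share.

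**Figure D3:**
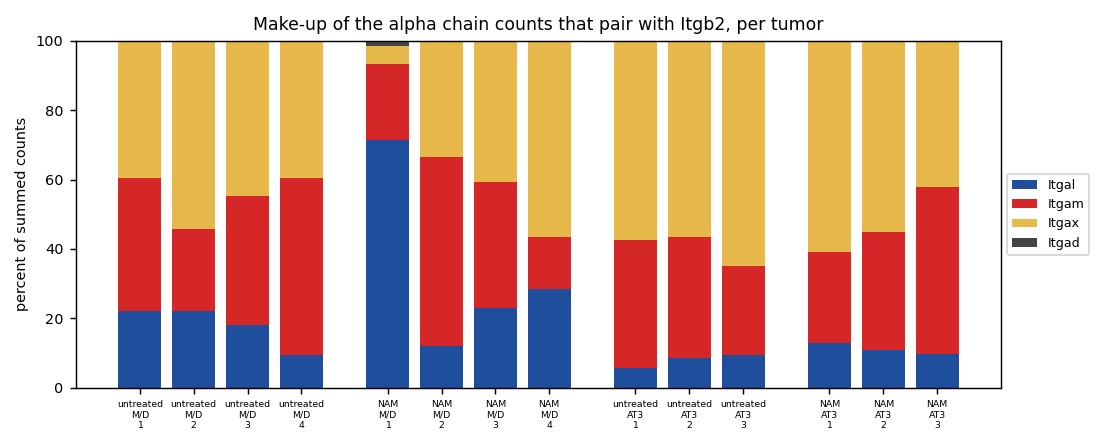
Share of each α chain in the summed normalized counts of *Itgal*, *Itgam*, *Itgax* and *Itgad* (y axis, percent), with 1 bar per tumor grouped by model and treatment. *Itgal* is 71.4% in NAM-treated M/D tumor 1 and at most 28.6% in the 13 other tumors.

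Partner chains were compared across the 8 M/D tumors on the log2 scale, as 6 relations over both models with Benjamini-Hochberg adjustment. *Itgb7* followed *Itgae* (Pearson r = 0.93, exact permutation p = 0.0013, adjusted 0.0078; Spearman rho = 0.83, exact permutation p = 0.015, adjusted 0.084; n = 8). The r was 0.79 without the 2 tumors farthest from the median *Itgae* and 0.87 in the 7 tumors of experiment 1 (exact permutation p = 0.01; rho = 0.75, exact permutation p = 0.066). *Itgb2* followed the sum of its α chains less closely (r = 0.74, exact permutation p = 0.036, adjusted 0.072; rho = 0.79, exact permutation p = 0.028, adjusted 0.084). Its r was 0.67 without the 2 farthest tumors and 0.81 in experiment 1 (exact permutation p = 0.02). *Itgb1* and *Itga4* had r = −0.74 (exact permutation p = 0.2, adjusted 0.24; rho = −0.10), which rested on single tumors, as r was 0.02 without the 2 farthest and 0.39 within experiment 1. Over the 6 AT3 tumors, r was 0.35 for *Itgb7* and *Itgae* (exact permutation p = 0.42, adjusted 0.42). It was 0.87 for *Itgb2* and its α chains (exact permutation p = 0.05, adjusted 0.075). For *Itgb1* and *Itga4* it was 0.88 (exact permutation p = 0.011, adjusted 0.033), and 0.51 without the 2 farthest tumors. Treated and untreated AT3 tumors were separate for most of these chains and each group held 3 tumors, so r also holds the group difference. The r of M/D tumors pool treated and untreated tumors too. Whether partners follow each other more closely than other chains do was not tested. In a separate correlation of all 8 members with each other, on a different basis, *Itgae* and *Itgb7* were at 0.79. *Itgax*, a partner of neither, was at 0.87 with *Itgae* and 0.79 with *Itgb7*. *Itga4*, the other α chain that pairs with *Itgb7*, was at −0.14 with it and −0.39 with *Itgae*, the lowest member for each. The remaining members ran from −0.01 to 0.74 with *Itgae* and from 0.33 to 0.65 with *Itgb7*.

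**Figure D4:**
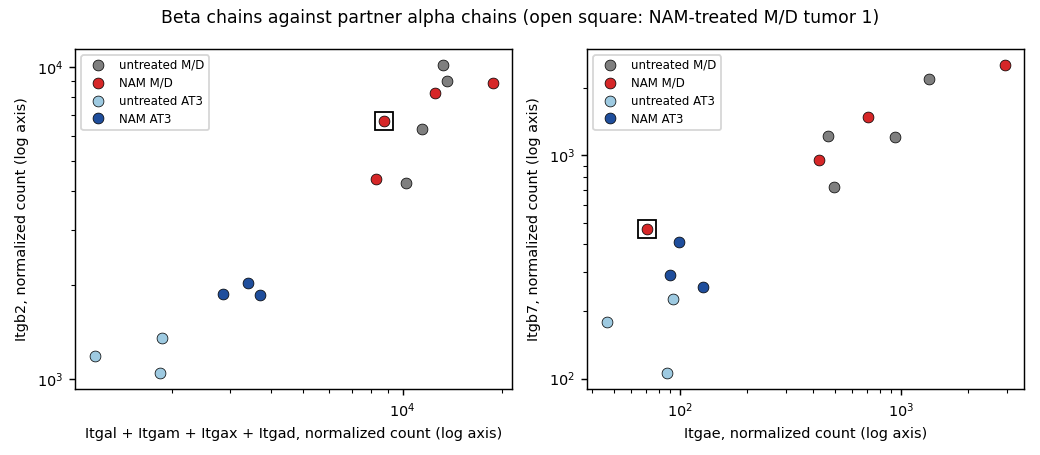
Normalized counts (both axes log) of *Itgb2* against the summed *Itgal*, *Itgam*, *Itgax* and *Itgad* (left) and of *Itgb7* against *Itgae* (right), with 1 point per tumor, colored by group, and an open square around NAM-treated M/D tumor 1. Across the 8 M/D tumors, r was 0.74 on the left and 0.93 on the right.

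Untreated AT3 tumors carried far less of the leukocyte integrins than untreated M/D tumors, after rescaling by TMM factors because the deposited scales of the models differ. Levels of all 8 members were separate between the models, and 7 were called lower in AT3 tumors, all but *Itgb1*. The thresholds called 32.4% of 21612 genes lower, 56.4% in all, and groups did not overlap for 53.7%. *Itgal* was at 2893, 2147, 1972 and 1159 rescaled counts in M/D and 74.2, 174 and 211 in AT3 tumors (log2 difference −3.79, SE 0.42, adjusted p = 0.000291 in limma). *Itga4* (−3.55), *Itgae* (−3.03), *Itgam* (−2.81), *Itgb7* (−2.63), *Itgb2* (−2.28) and *Itgax* (−2.20) followed, with adjusted p values in limma of at most 0.00132. Over 18174 genes with a length, this difference correlated with transcript length at a Spearman rho of −0.32. With the trend on length and GC content removed, the same 7 were called lower, by smaller differences of −3.06 (*Itgal*) to −1.81 (*Itgax*). On that scale, 5881 of 18174 genes were called lower. *Ptprc*, by comparison, was at −2.35 (SE 0.31), and 4 of 5 leukocyte markers, 8 of 9 T cell markers and 7 of 8 macrophage markers were called lower. So were 5 of 8 neutrophil and 5 of 7 dendritic cell markers, but only 1 of 6 B cell, 0 of 7 NK cell and 0 of 5 mast cell markers. Markers of other cell types were lower too, with 6 of 9 epithelial, 4 of 5 endothelial and 4 of 6 fibroblast markers called. *Itgb1* was nearest to equal, at 30502, 35498, 34662 and 28189 against 22790, 22496 and 21339 (−0.53, SE 0.18, adjusted p = 0.0391 in limma, under 1.5-fold), and its sign turned with upper-quartile scaling (0.07). Since each model was run in its own experiments, model and experiment cannot be told apart.

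The rest of the integrin pathway was read from lists of genes. Of 17 other integrin subunits tested in AT3 tumors, 5 were called higher with NAM and 1 lower, with the smallest p values for *Itga6*, the laminin receptor chain (1.20), *Itgav*, the vitronectin receptor chain (1.27), and *Itga2b*, the platelet chain (−1.15). Of 12 ligands tested, 3 were higher (*C3*, the source of the complement fragment that Mac-1 binds, 0.89; *Cdh1*, E-cadherin, 0.90; *Icam1*, the LFA-1 ligand, 0.81) and 1 was lower (*Spp1*, osteopontin, −1.29). *Vcam1*, the ligand of *Itga4* with *Itgb1*, was at 0.57 and was not called. Of 27 activation and adaptor genes, 9 were higher and 1 lower. *Rasgrp1*, an exchange factor of the Ras family in lymphocytes, had the smallest p (2.82), followed by *Syk*, a kinase downstream of integrins (1.17), and *Apbb1ip*, the adaptor RIAM that brings talin to the membrane (1.12). These shares stand beside 12.2% of all genes called higher and 10.9% lower. With the trend on length and GC content removed, 2 other integrins were higher and 2 lower, 1 ligand was higher and 0 lower, and 3 adaptor genes were higher and 1 lower, against 8.77% of all genes higher and 7.3% lower on this scale. In M/D tumors, limma called 1 of 18 other integrins (*Itgb8*, −2.42), 0 of 15 ligands and 0 of 27 adaptor genes. There, 6.22% of all genes were called, and 3.19% were called lower.

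By likeness of pattern over the 14 tumors, with each model centred on its own mean, the nearest of 15414 genes to *Itga4* were *Ikzf1*, a lymphoid transcription factor (Pearson r = 0.98), *Dock10* (0.98) and *Kcna3* (0.96). Without NAM-treated M/D tumor 1, these were 0.95, 0.94 and 0.92. The nearest to *Itgal* were *Grap2*, *Themis2* and *Tlr9* (0.96, 0.95 and 0.91). *Itgb7* was nearest to *St8sia1* (0.94), *Icos*, a T cell costimulator (0.92), and *Myo1f* (0.91). *Itgam* was nearest to *Loxl2* (0.97), *Adgrd1* (0.95) and *Zdhhc5* (0.94), and *Itgb2* to *Fcgr2b*, an Fc receptor (0.86), *Fgr* (0.83) and *C1ra* (0.83). *Itgax* was nearest to *Lmx1b*, *Kif1a* and *Tldc1* (0.95, 0.94 and 0.93), which were 0.81, 0.79 and 0.78 without NAM-treated M/D tumor 1. *Itgae* was nearest to *Trim68*, *Acadsb* and *Rai2* (0.94, 0.92 and 0.91), which were 0.85, 0.82 and 0.80 without that tumor. *Itgb1* was nearest to *Shtn1*, *Rab11fip5* and *Atp11a* (0.97, 0.97 and 0.96). These correlations describe tumors that share a library scale, and no test was made of them.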

How the data were processed

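RNA of whole tumors was extracted with RNeasy kits, and polyA libraries were sequenced in paired-end mode with reads of 75 bases. Per the submitters' processing notes, STAR 2.4.0, SAMtools, Picard, FastQC and DESeq2 were used, on mm10. The authors deposited a signal per gene, which are counts divided by a size factor of each tumor. Within a tumor, 100% of values were whole multiples of 1 step (tolerance 0.01), so whole reads were recovered for the count tests, and 0 columns of values were left unmapped. Depth was 40936868 to 84178009 reads per tumor.

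Groups came from the sample titles. The 8 genes and all lists were chosen with earlier results of these data known. Named genes were the members, up to 3 genes per list with the smallest unadjusted p, and the 3 genes most like each member. Further genes named in the counts of 5 or fewer, and *Vcam1* and *S100a8*, were chosen after their values were seen. Genes that reached a mean of 10 in 1 or more of the groups compared entered limma 3.58.1 with a trend (R 4.3.3) on log2(value + 1), which includes a pseudocount of 1. Comparisons were NAM against untreated within each model, their difference as an interaction term, AT3 against M/D among untreated tumors, and the first pair relative to *Ptprc*. Adjustment was Benjamini-Hochberg over all genes tested. Alternatives were other pseudocounts, filters and scalings, edgeR 4.0.16, DESeq2 1.42.0, removal of the length and GC trend (a spline with 4 degrees of freedom, GENCODE lengths for 84.1 to 85.2% of genes tested), a single fit of all 14 tumors, a replicate block, and each tumor left out. Fits were tested on simulated data. Exact permutation tests and correlations used Python 3.11.15 and scipy 1.17.1, and plots matplotlib 3.10.9. Promoter sequences were those of RefSeq on GRCm38.p6.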

Additional observations from a re-analysis of the deposited data

Results flagged for a closer look

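*Itga4* in NAM-treated M/D tumor 1, at a normalized count of 6758.4, lay far from the 3 other NAM-treated M/D tumors (175 to 860), by a gap larger than Dixon's 95% limit for a group of 4. Among 22 groups of 4 examined in this way, chance gives about 1 in 20. This is the tumor of experiment 2, with the highest B cell and the lowest epithelial marker levels of its model, and the part of these in the value was not tested.

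The effect of NAM on *Itgam* met the unadjusted thresholds for a difference between the models, with an interaction of 1.61 on the log2 scale (higher in 3 of 3 NAM-treated AT3 tumors than in any untreated one, while of 4 NAM-treated M/D tumors, tumor 1 of experiment 2 was lower and tumor 2 was higher than every untreated one). Its adjusted p in limma was 0.266, and 0.13 to 0.62 over the alternatives.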

How the results depend on the processing

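With each tumor left out in turn, the number of members called ranged from 0 to 1 for NAM in M/D tumors, 4 to 6 in AT3 tumors, 0 to 4 for the difference between models, 7 to 8 between untreated models, 0 to 2 relative to *Ptprc* in M/D and 0 to 1 in AT3 tumors. Calls over all genes moved as well in these fits. In the same order, they ranged from 784 to 2712, 1618 to 6765, 1838 to 4574, 10841 to 12589, 598 to 2414 and 4380 to 9830. The difference between models had 4 calls without NAM-treated M/D tumor 4, 2 without untreated M/D tumor 2 or NAM-treated AT3 tumor 1, and 0 without NAM-treated AT3 tumor 3. Without these tumors, in that order, 3905, 3505, 4574 and 1838 of all genes were called. Relative to *Ptprc* in M/D tumors, 2 were called without NAM-treated M/D tumor 2, against 2353 of 21837 genes.

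In M/D tumors, edgeR and DESeq2 called 1 member (*Itga4*) and turned *Itgae* to 0.32 and 0.35, DESeq2 turned *Itgb7* to 0.02, and the upper quartile turned *Itgb2* to 0.06. Without 1 tumor, *Itgb2* ranged from −0.29 to 0.16, *Itgb7* from −0.51 to 0.31, *Itgae* from −1.40 to 0.39, and *Itgal* relative to *Ptprc* from −0.11 to 0.39. In AT3 tumors, all 14 tumors in 1 fit left 3 calls (*Itgal*, *Itgam* and *Itgb2*), against 3298 of 19281 genes. For the difference between models, removal of the length and GC trend left 0 calls and TMM gave 2, and *Itga4* turned to −0.21 (trend removed), −0.07 (upper quartile), −0.91 (edgeR) and −1.01 (DESeq2), and ranged from −0.48 to 1.27 without 1 tumor. Relative to *Ptprc* in AT3 tumors, 0 were called with a pseudocount of 5, no filter, a group mean of at least 50, the trend removed or all 14 tumors in 1 fit, and 2 with 5 leukocyte genes; *Itgb2* was at 0.23 with the trend removed and 0.41 with the 5 genes, *Itgae* at 0.23 and *Itgb1* at 0.09. Without 1 tumor, these *Itgae* and *Itgb2* values ranged from −0.48 to 0.11 and from −0.13 to 0.16. Between untreated models, *Itgb1* was at 0.07 by upper quartile, and was called lower with the values as deposited (−0.82) and without untreated M/D tumor 4 (−0.60). The causes were not tested. That scaling moved the median of all genes to 0.12 in M/D tumors and 0.49 between models, and the calls higher and lower from 658 and 692 to 915 and 561 and from 5183 and 6996 to 8370 and 4658. For the difference between models, calls went from 1795 and 1582 to 942 and 3230, and to 2294 and 1216 by TMM.

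Deviations of tumors with the same replicate number correlated at r of −0.46 to 0.11 in M/D and −0.21 to 0.30 in AT3 tumors. Tumors with different numbers were at −0.23 to 0.41 and −0.38 to 0.34. With so few tumors these r cannot decide whether the numbers pair them, and the labels do not say. With the replicate block, 0 members were called in M/D, 6 in AT3 tumors and 0 relative to *Ptprc* in AT3 tumors, where the fit without it called 1. Under the block, adjusted p values in limma were 0.0292 for *Itgal* and 0.033 for *Itgam* in AT3 tumors. In all genes the block took the AT3 calls from 4458 to 5082 and the M/D calls from 1350 to 1001. At an adjusted p of 0.05 in limma, the block passed 1296 genes in AT3 tumors, against 1 without it. In M/D tumors it passed 0, against 1 without it. With 3 tumors against 3, exact tests cannot go below 0.1, and *Itga4* in untreated AT3 tumors rests on few reads.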
